A study of Mus musculus with 5 samples.

Results

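Chemokines and their receptors were measured in long-term haematopoietic stem cells (LT-HSCs) of mice that had lost Lrf, the transcription factor encoded by Zbtb7a. Members were all genes with a Ccl, Cxcl, Ccr or Cxcr symbol, together with the CX3C and XC ligand and receptor genes, that the platform annotation gave a probe set of their own. Ccl5 and Cxcl10 were not analysed here. The rule found 47 genes of 18193 with such a probe set, 31 ligands and 16 receptors, on 75 probe sets. Each gene was read from the probe set with the highest mean over the 5 arrays. Of the 47 genes, 28 passed the filter on dim values (19 ligands and 9 receptors), and the other 19 had a mean log2 intensity below 5.77 and are called dim. Ccl20, at a mean of 5.80, lay just inside that limit and Ccl28, at 5.69, just outside it. Values are log2 RMA intensities, and since probes differ in affinity, levels are compared between arrays and never between genes.

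Chemokines are small secreted proteins that direct the movement of blood cells. They bind receptors with several membrane-spanning segments that signal through inhibitory G proteins to phosphoinositide 3-kinases and the Rac GTPases. In bone marrow, Cxcl12 from stromal cells holds stem cells in place through Cxcr4, whereas inflammatory chemokines are made mainly by activated myeloid and lymphoid cells and recruit neutrophils, monocytes and T cells.

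The 2 control arrays came from Zbtb7a Flox/+ Mx1-Cre+ mice and the 3 knockout arrays from Zbtb7a Flox/Flox Mx1-Cre+ mice, all C57BL/6 and aged 4 weeks. Both groups carried Cre under the Mx1 promoter, which interferon switches on in many tissues, and both received 2 injections of the interferon inducer pIpC (250 µg each). Cells were collected on day 9 after the first injection, so Cre, pIpC and a floxed Zbtb7a allele were common to both groups. The sort took LSK cells, positive for CD150 and negative for IL7Ra, Flt3 and CD48. The label of knockout replicate 3 names 2 animals, so it may be a pool. The p-values measure the spread between these arrays, some of which may be technical.

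Median log2 intensity per array was 6.38 to 6.40. On its brightest probe set, Zbtb7a itself read 8.22 and 8.36 in controls and 8.72, 8.33 and 9.06 in knockouts 1, 2 and 3, a log2 difference of 0.41 (SE 0.26), and none of its 3 probe sets separated the groups (exact two-sided permutation p = 0.3, 0.4 and 0.8, smallest possible 0.1). Which part of the gene these probes cover was not analysed here, so they check nothing about the deletion. Knockout replicate 2 differed from the rest: over 45037 probe sets, pairs that include it correlated at 0.945 to 0.970 and other pairs at 0.977 to 0.990. All 12 measured LT-HSC markers were lowest on that array. Their mean was 7.25 there and 9.001 to 9.86 on the others, and the stem cell receptor gene Kit read 9.60 against 11.12 to 11.82. Results that rest on this array are given with and without it.

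The promoters of 4 members are shown because they carry a match to the binding motif of NF-kB, a factor that switches on many inflammatory chemokines, and because 3 of the 4 genes (Cxcl2, Ccl9 and Ccr1) were among those far higher in knockout 2. Each is the 250 bases before the RefSeq start (build GRCm38.p6), read 5′ to 3′ along the gene, with bases matching the motif on either strand in capitals. Cxcl2 and Cxcl1 are direct neighbours and hold the same 11 bases, at chr5:90903649-90903898 (plus strand) and chr5:90890995-90891244 (plus strand). Ccl9 lies at chr11:83578637-83578886 (minus strand) and Ccr1 at chr9:123968693-123968942 (minus strand).
Cxcl2: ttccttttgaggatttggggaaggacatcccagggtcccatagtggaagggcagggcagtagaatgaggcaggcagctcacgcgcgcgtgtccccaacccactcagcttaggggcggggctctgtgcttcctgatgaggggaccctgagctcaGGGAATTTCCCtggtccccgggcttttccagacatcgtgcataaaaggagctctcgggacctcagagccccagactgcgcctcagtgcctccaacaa
Cxcl1: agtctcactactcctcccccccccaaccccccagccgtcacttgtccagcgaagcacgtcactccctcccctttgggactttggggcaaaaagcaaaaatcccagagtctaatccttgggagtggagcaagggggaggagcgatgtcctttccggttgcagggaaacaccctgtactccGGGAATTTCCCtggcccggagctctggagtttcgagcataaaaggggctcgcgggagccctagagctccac
Ccl9: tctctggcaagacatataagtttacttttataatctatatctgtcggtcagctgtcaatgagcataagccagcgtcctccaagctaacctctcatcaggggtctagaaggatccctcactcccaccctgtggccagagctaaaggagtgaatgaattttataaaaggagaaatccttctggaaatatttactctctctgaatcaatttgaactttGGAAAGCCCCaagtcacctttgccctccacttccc
Ccr1: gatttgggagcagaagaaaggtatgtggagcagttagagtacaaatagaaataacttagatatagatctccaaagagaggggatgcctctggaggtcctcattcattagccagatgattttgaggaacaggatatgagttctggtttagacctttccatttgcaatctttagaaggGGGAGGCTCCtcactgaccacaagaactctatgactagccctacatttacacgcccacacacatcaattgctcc

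RefSeq windows of 300 bases, 250 before and 50 after the start, were found for 35 of the 47 members, as 39 windows. The NF-kB consensus was present on either strand in 10 of these 39 windows (25.6%), against 8.46% of 32851 windows of all genes. The genes were Ccl1, Ccl9, Ccl20, Ccl27a, Cxcl1, Cxcl2, Cxcl3, Ccr1, Ccr3 and Ccr6. Ccl6, Cxcr2, Cx3cr1 and the dim Ccl3, also far higher in knockout 2, were not among them, though not every member had a window. The AP-1 motif (TGANTCA) was in 6 windows (15.4%, against 7.81%), those of Ccl9, Ccl27a, Ccl28, Ccr3, Ccr4 and Cxcl9. The core of the interferon-stimulated response element was in 1, that of Cxcl14 (2.56%, against 3.44%). No NF-kB match overlapped a match to either of the others in these windows. A match is a stretch of letters and says nothing of binding in these cells.

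Inflammatory chemokines held the widest ranges over the 5 arrays among the 47 genes, 7.56 log2 units for Cxcl2 and 6.09 for Ccl6. Of 16 in the list, 9 passed the filter, with a median range of 1.13, below that of the 4 CXC and CX3C receptors past it (2.82). The knockout mean was above the control mean for all 9 (43.7% of all genes), but for only 3 of them without knockout 2, and none passed the test. Cxcl2, a neutrophil attractant that acts through Cxcr2, read 4.60 and 4.91 in controls 1 and 2 and 4.19, 11.75 and 4.50 in knockouts 1, 2 and 3. It was thus near background on 4 arrays and bright on 1, and it passed the filter only through knockout 2. The log2 difference between groups was 2.06 (SE 2.56), and without knockout 2 it was -0.41 (SE 0.20).

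Ccl6 and Ccl9 are myeloid CC chemokines of rodents that bind Ccr1. Ccl6 read 8.44 and 7.69 in controls and 5.83, 11.92 and 7.20 in knockouts, a difference of 0.25 (SE 1.92). Knockout 2 was the highest array and knockout 1 the lowest, so the knockout group enclosed the controls; without knockout 2 the difference was -1.55 (SE 0.58). The second Ccl6 probe set showed the same order, with 11.99 in knockout 2 and 5.59 in knockout 1. Ccl9 read 7.03 and 7.54 in controls and 6.58, 10.83 and 6.76 in knockouts, and its difference of 0.77 (SE 1.45) became -0.61 (SE 0.23) without knockout 2.

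Cxcl9 and Cxcl11 are ligands of Cxcr3 that interferon induces, and on their brightest probe sets both were highest in knockout 1 instead. Cxcl9 read 7.10 and 8.06 in controls and 9.18, 6.98 and 7.28 in knockouts, a difference of 0.23 (SE 0.78). Its control values spanned nearly 1 log2 unit and 2 knockout values lay among or below them. Cxcl11, which RefSeq lists as a transcribed pseudogene in C57BL/6J, read 7.19 in knockout 1 and 6.05 to 6.22 on the other arrays. The second probe set of each gene was dim and was not highest in knockout 1. That of Cxcl9 read 5.57 in control 1 and 5.55 in knockout 1, and that of Cxcl11 4.57 in knockout 3 and 4.35 in knockout 1. Interferon response genes were highest in knockout 1. Their mean over 13 genes was 10.95 there, 8.31 and 8.52 in controls, and 9.02 and 8.77 in knockouts 2 and 3. Of the 13, 8 were higher in every knockout than in both controls (61.5%, against 2.68% of all genes), and 0 had an unadjusted p under 0.05. The part of that response in the Cxcl9 and Cxcl11 values was not tested.

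The remaining inflammatory ligands moved little. Ccl4, an attractant of monocytes and T cells, read 8.17 and 8.30 in controls and 8.48, 8.83 and 7.90 in knockouts. Cxcl1, a neutrophil attractant like Cxcl2, read 8.18 and 7.77 in controls and 7.99, 8.46 and 7.83 in knockouts, although a second probe set was higher in each knockout (7.42 to 7.96) than in both controls (7.11 and 7.30). Both of these Cxcl1 probe sets are of types that can share probes with similar transcripts. Ccl1 and Ccl8 differed by 0.18 and 0.26.

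**Figure D1:**
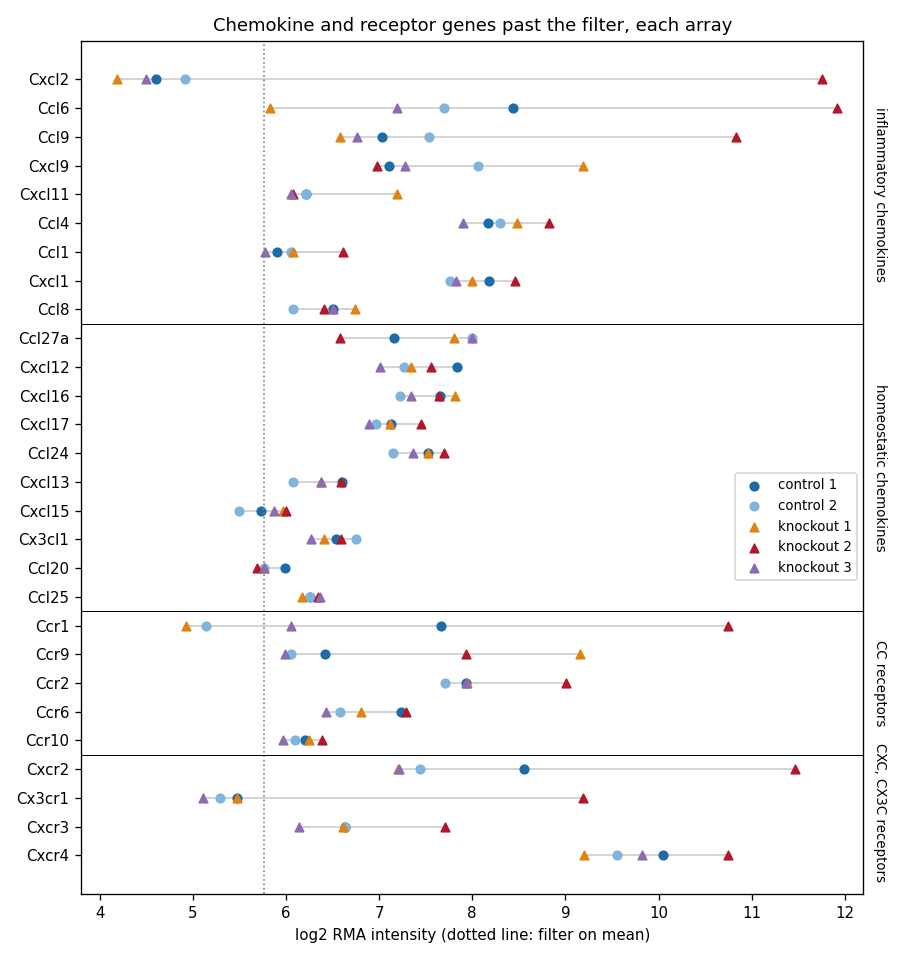
Log2 RMA intensity (horizontal axis) of the 28 chemokine and receptor genes past the filter, with circles for the 2 control and triangles for the 3 knockout arrays; grey lines span the 5 arrays and the dotted line is the filter at 5.77. Knockout 2 lies far to the right for Cxcl2, Ccl6, Ccl9, Ccr1, Cxcr2 and Cx3cr1, while knockout 1 is the highest array for Cxcl9, Cxcl11 and Ccr9.

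The next group, called homeostatic because many of its genes guide cells at rest, mostly varied little between arrays. Past the filter its median range was 0.53 log2 units, and Ccl27a had the widest at 1.42. Of the 15 measured genes in this group, 10 passed the filter, with 6 differences above and 4 below 0, from -0.25 to 0.33. Cxcl12, the ligand of Cxcr4, read 7.83 and 7.27 in controls and 7.35, 7.56 and 7.01 in knockouts, a difference of -0.25 (SE 0.27) that is within the spread between arrays; it was 0.033 without control 1. Its second probe set differed by -0.31. Cxcl15, known as lungkine, was the 1 member whose groups did not overlap, where 2.68% of all genes were higher without overlap. It read 5.73 and 5.49 in controls and 5.97, 5.998 and 5.87 in knockouts. That difference was 0.33 (SE 0.15; limma adjusted p = 1), and all 5 values lay close to the limit for dim genes. The control mean of 5.61 was below that limit, so Cxcl15 passed the filter only through the knockouts in which it was higher. Without knockout 2 its mean would have been dim. On its second probe set, which was dim, the groups overlapped, with 4.79 and 4.34 in controls and 4.88, 4.79 and 4.79 in knockouts.

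The other homeostatic ligands did not separate the groups. Ccl27a, an attractant of skin-homing T cells, was lowest in knockout 2 at 6.58 and read 7.16 to 8.003 elsewhere, on a probe set that may share probes with similar genes. Cx3cl1, the ligand of Cx3cr1, differed by -0.22 and Ccl20, the ligand of Ccr6, by -0.14. Ccl25, the ligand of Ccr9, stayed between 6.18 and 6.37 on all arrays. Cxcl16, the ligand of Cxcr6, Ccl24, Cxcl13 and Cxcl17 differed by 0.16, 0.19, 0.11 and 0.11.

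Among CC receptors, Ccr9 differed most. It binds Ccl25 and marks cells that home to the thymus and gut, among them early T cell precursors and plasmacytoid dendritic cells. Ccr9 read 6.42 and 6.06 in controls and 9.15, 7.93 and 5.995 in knockouts 1, 2 and 3. Knockouts 1 and 2 were above both controls and knockout 3 was below them. The log2 difference was 1.45 (SE 0.96; limma adjusted p = 1), 1.33 (SE 1.16) without knockout 2 and 0.72 to 2.30 as single arrays were left out. A dimmer Ccr9 probe set showed the same order, with 5.92 and 5.56 in knockouts 1 and 2 against 4.54 to 4.76. The other 3 stayed between 4.01 and 4.84 and differed by 0.28, 0.14 and 0.12. The brightest Ccr9 probe set is of a type that can share probes with similar transcripts.

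Some genes of other cell types were high on the same arrays as Ccr9. Il7r, whose protein the sort excluded, read 6.21 and 7.30 in controls and 9.35, 10.50 and 7.44 in knockouts. The mean of 8 dendritic cell and MHC class II genes was 8.78 and 9.09 in knockouts 1 and 2 and 7.66 to 7.98 on the other arrays, but Siglech, a defining gene of plasmacytoid dendritic cells, read 6.40 in knockout 1 and 6.42 in control 1. The mean of 9 T, NK and innate lymphoid genes was 7.08 and 7.90 in knockouts 1 and 2 and 6.42 to 6.64 elsewhere. Knockout 1 was the highest array for 0 of these 9 and knockout 2 for 8, while Cd3g and Ncr1 were dim. The lists of B lineage genes and of mast cell and basophil genes were not high in knockout 1, although the interferon response genes were. B lineage genes had a mean of 6.90 there and 7.36 and 7.26 in controls, and mast cell and basophil genes 7.62 against 7.67 and 7.65. The part of other cell types in the Ccr9 values was not tested, and in bulk RNA a change in the number of such cells cannot be told apart from a change in RNA per cell.

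Ccr1, a receptor for Ccl3, Ccl6 and Ccl9 on neutrophils and monocytes, read 7.67 and 5.14 in controls and 4.93, 10.74 and 6.05 in knockouts. The controls differed from each other by more than the groups did (0.84, SE 1.99), and without knockout 2 the difference was -0.91 (SE 1.01). Ccr2, the receptor that brings monocytes out of the marrow, was read by 4 probe sets. The brightest gave 7.94 and 7.71 in controls and 7.95, 9.01 and 7.94 in knockouts, a difference of 0.47 (SE 0.39), and 0.12 (SE 0.15) without knockout 2. The other Ccr2 probe sets showed knockout 2 further apart, at 10.06 against 4.56 to 5.47, 9.02 against 5.48 to 5.99 and 7.08 against 3.78 to 4.01. On the first of these the groups did not overlap, with 5.18 and 4.56 in controls and 5.34, 10.06 and 5.47 in knockouts. All arrays but knockout 2 lay below 5.77 there, so this probe set passed the filter only through knockout 2. Its difference of 2.09 rests mostly on that array. Averaged over its probe sets past the filter, that one included, Ccr2 differed by 1.27. Ccr6 and Ccr10 differed by -0.066 and 0.054.

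Of the CXC and CX3C receptors, Cxcr4 was measured on 1 probe set. It read 10.05 and 9.55 in controls and 9.20, 10.74 and 9.82 in knockouts. The difference of 0.12 (SE 0.50) was smaller than the spread in either group, and became -0.29 (SE 0.31) without knockout 2. Cxcr2, the neutrophil receptor of Cxcl1 and Cxcl2, read 8.55 and 7.44 in controls and 7.21, 11.47 and 7.21 in knockouts, a difference of 0.63 (SE 1.51) that was -0.79 (SE 0.42) without knockout 2. Cx3cr1, a receptor of monocytes and macrophages, read 9.19 in knockout 2 and 5.11 to 5.48 on the other arrays, and its second probe set read 5.38 in knockout 2 against 5.03 to 5.22. Its difference of 1.21 (SE 1.35) was -0.090 (SE 0.19) without that array. Cxcr3, a receptor of T and NK cells, read 7.70 in knockout 2 and 6.14 to 6.64 elsewhere.

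Dim members had means from 3.84 to 5.69. For 14 of the 19 the 5 arrays lay within 1 log2 unit of each other, and in none did the groups fail to overlap. Cxcr5, Ccr3 and Ccl2 had ranges of 1.65, 1.53 and 1.02. Ccl3 and Ccr7 had the widest, 4.82 and 2.39, and were picked out after their values were seen. Ccl3, a ligand of Ccr1 known to restrain stem cell division, read 9.04 in knockout 2 and 4.22 to 4.995 on the other arrays. Ccr7, a receptor that brings lymphocytes and dendritic cells to lymph nodes, read 7.10 in knockout 2 and 4.71 to 5.41 elsewhere. The other dim genes were Ccl2, Ccl7, Ccl11, Ccl12, Ccl17, Ccl22, Ccl28, Cxcl3, Cxcl5, Cxcl14, Xcl1, Ccr3, Ccr4, Ccr8, Cxcr5, Cxcr6 and Xcr1.

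Several members lie side by side on a chromosome in RefSeq. Along chromosome 11 the order is Ccl9, Ccl6, Ccl3 and Ccl4, with no other coding gene between them. The first 3 were at least 2 log2 units higher in knockout 2 than on every other array, whereas Ccl4 read 8.83 there and 7.90 to 8.48 elsewhere. On chromosome 5, Cxcl2 follows Cxcl3, Cxcl15 and Cxcl1. Of these 4, Cxcl2 alone lay at least 1 unit above all other arrays in knockout 2, although Cxcl1 and Cxcl3 also held the NF-kB motif, and Cxcl3 was dim at 4.02 there. On chromosome 9, Ccr1 and Ccr2 flank Ccr3 (with 1 further coding gene after Ccr1). Ccr3, a receptor of eosinophils, read 5.36 in knockout 2 and 6.18 in control 1.

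**Figure D2:**
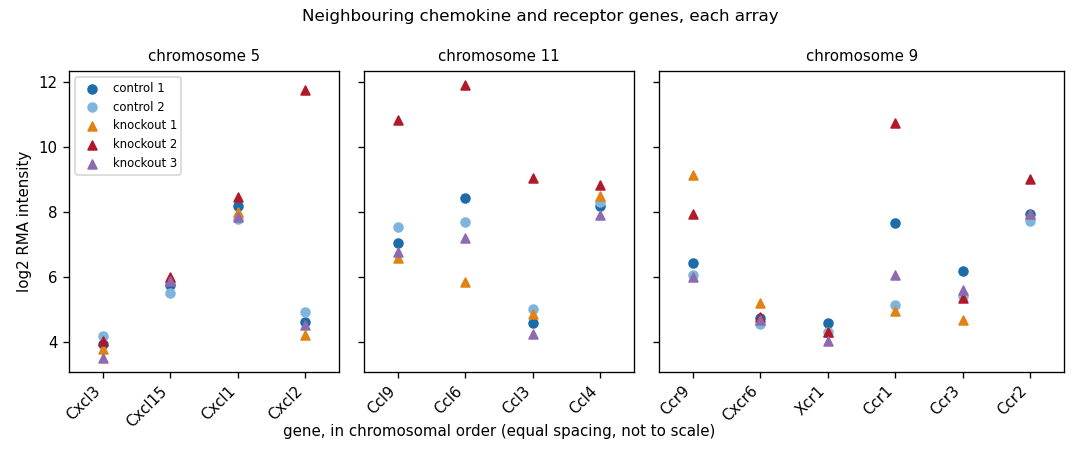
Log2 RMA intensity (vertical axis) of neighbouring members in chromosomal order, with circles for control and triangles for knockout arrays; spacing is equal and levels of different genes are not comparable. In knockout 2, Ccl9, Ccl6 and Ccl3 stand above the other arrays and Ccl4 does not, and Cxcl2 reads 11.75 while Cxcl3 reads 4.02.

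Across the members, limma called 0 of 28 at an adjusted p under 0.05 (0% of 12813 genes), and every adjusted p was 1. At an unadjusted p under 0.05 it gave 0 of 28, against 0.96% of all genes. The groups did not overlap for 1 member with higher values in knockouts (3.57%, against 2.68% of all genes) and for 0 with lower values (against 4.5%). A log2 difference of at least 1 upwards was seen for 3 members, Ccr9, Cx3cr1 and Cxcl2 (10.7%, against 0.921%), and downwards for 0 (against 0.71%). Without knockout 2 this held for Ccr9 (1.33) and not for Cx3cr1 (-0.090) or Cxcl2 (-0.41), and these last 2, like Cxcl15, passed the filter only through that array. The knockout mean was above the control mean for 23 of 28 members (82.1%, against 43.7%), with a median difference of 0.18 against -0.030 over all genes.

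Many of the highest values lay on 1 array. Knockout 2 was the highest array for 17 of 28 members (60.7%, against 26% of all genes). It lay at least 1 log2 unit above every other array for 8 members (28.6%, against 3.6%), namely Ccl6, Ccl9, Cxcl2, Ccr1, Ccr2, Cx3cr1, Cxcr2 and Cxcr3. It lay at least 2 units above for 6 of these (21.4%, against 0.89%), 3 ligands and 3 receptors. Cxcl2 and Cx3cr1 are among these 6 and passed the filter only through knockout 2. So did Cxcl15, for which knockout 2 was the highest array by 0.031. The filter itself thus favoured the place of these genes in the counts. Knockout 1 lay at least 1 unit above every other array for Ccr9 and Cxcl9 (7.14%, against 0.445%), whereas no member did so in control 1 (against 0.101%), control 2 (against 0.242%) or knockout 3 (against 0.0312%).

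Without knockout 2, the difference was below 0 for 17 of 28 members (60.7%, against 48.9% of all genes) and their median was -0.049 (0.0032 over all genes). The groups then did not overlap for 6 members with lower values in knockouts, Ccl6, Ccl9, Cxcl2, Cx3cl1, Cxcr2 and Cxcr3 (21.4%, against 13.5% of all genes), and for 1, Cxcl15, with higher values (3.57%, against 13.9%). None of them passed the test (smallest limma adjusted p = 0.953), and 0 members had an unadjusted p under 0.05. The 28 members were still those past the filter with knockout 2 counted in. Without it 3 of them, Cxcl2, Cxcl15 and Cx3cr1, would be dim. The lower values of Cxcl2 are thus a comparison near background, at 4.19 to 4.91.

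**Figure D3:**
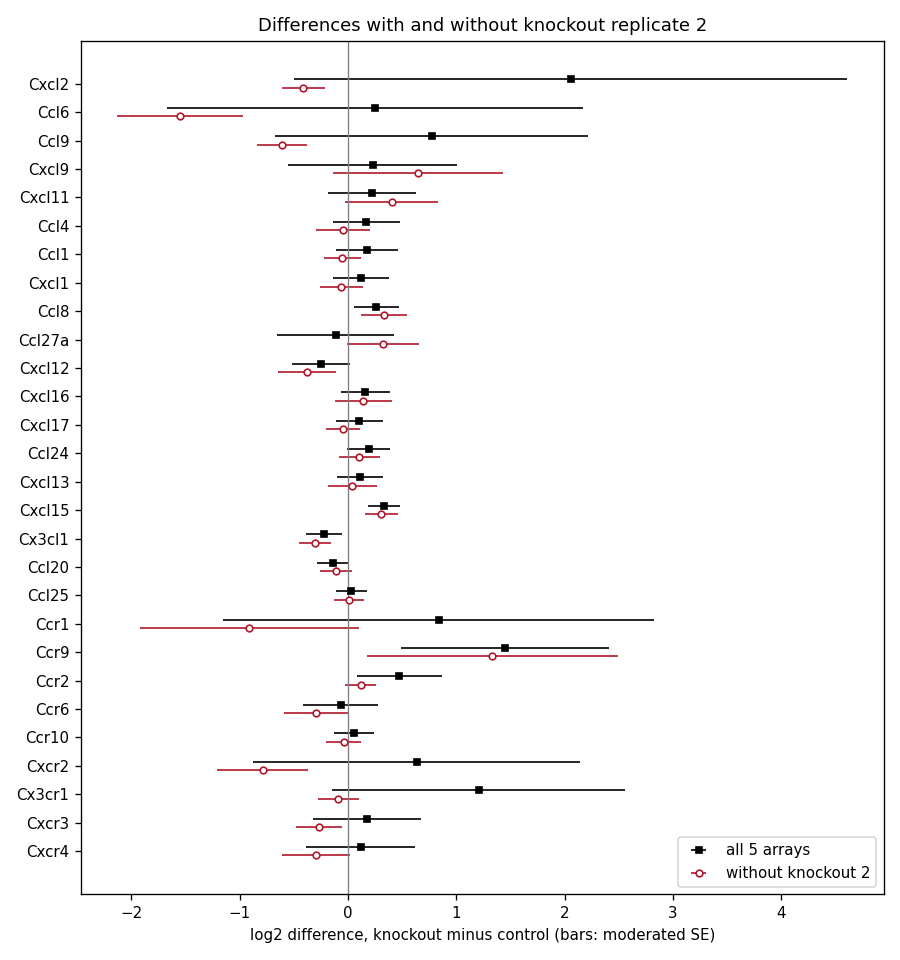
Log2 difference of knockout minus control (horizontal axis) for the 28 members past the filter, with the moderated standard error, from all 5 arrays (black squares) and without knockout 2 (open red circles). Cxcl2, Ccl6, Ccl9, Ccr1, Cxcr2 and Cx3cr1 move from above 0 to below 0 when that array is left out, whereas Ccr9 stays at 1.33.

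Several gene lists moved with the high values in knockout 2. The mean of 10 neutrophil and monocyte markers was 12.62 and 11.54 in controls and 10.44, 13.23 and 11.47 in knockouts. This is highest in knockout 2, then control 1, and lowest in knockout 1, as for Ccl6, Ccr1 and Cxcr2. The neutrophil granule gene Ltf read 14.86 in knockout 2 and 10.84 in knockout 1, so these markers were bright on every array although the sort was for stem cells. Immediate early and stress genes had a mean of 11.61 in knockout 2 and 8.03 to 8.32 on the other arrays, B lineage genes 9.40 against 6.89 to 7.36, and mast cell and basophil genes 9.51 against 7.62 to 7.90. Macrophage genes did not follow this order, with 10.27 and 9.35 in controls and 7.82, 8.04 and 9.02 in knockouts. Of 14 macrophage genes, 9 were lower in every knockout without overlap (64.3%, against 4.5%). The part of these cell types, or of a stress response, in the chemokine values was not tested.

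**Figure D4:**
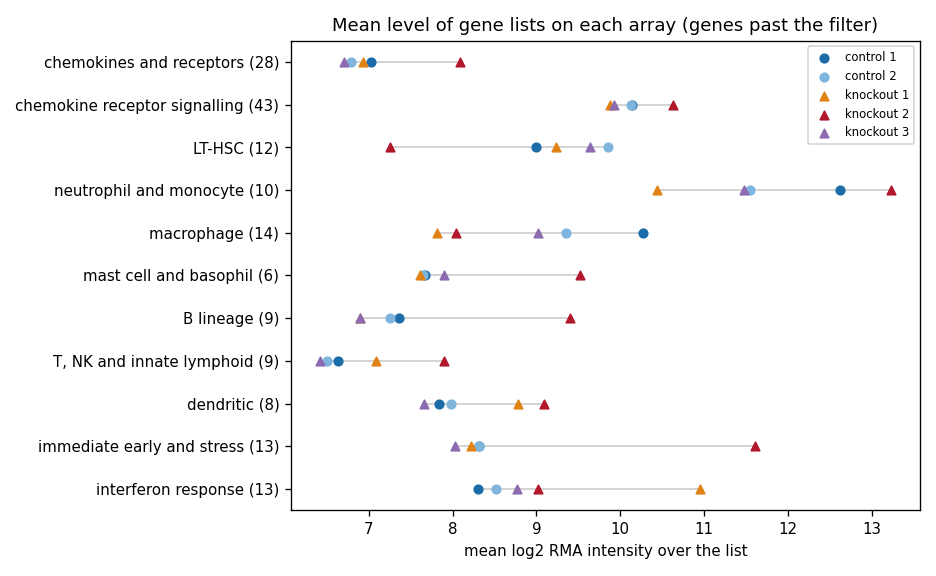
Mean log2 RMA intensity (horizontal axis) over the genes of each list past the filter, on each array; the number of genes is in brackets, circles are control and triangles knockout arrays. Knockout 2 is the highest array for chemokines and receptors, their signalling genes, neutrophil, mast cell, B lineage, lymphoid, dendritic and immediate early genes, and the lowest for LT-HSC genes.

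Other genes of the chemokine system, 16 in all and outside the symbol rule, had 14 past the filter. None passed the test, none had an unadjusted p under 0.05 and none separated the groups, and their median difference was -0.0050. Pf4, a platelet CXC chemokine, read 11.34 and 10.57 in controls and 10.45, 9.01 and 11.40 in knockouts, a difference of -0.67 (SE 0.76). Ppbp, another platelet chemokine, differed by -0.34 (SE 0.31). Cd74, the invariant chain and a receptor for Mif, differed by 1.06 (SE 0.87), with 8.69 and 8.19 in controls and 9.92, 10.65 and 7.90 in knockouts, and the dendritic list it belongs to was likewise highest in knockouts 1 and 2. Ccrl2, an atypical receptor, differed by 0.45 (SE 0.49), and the decoy receptor gene Ackr3, which encodes a second receptor for Cxcl12, was dim. Mmp9, a protease that trims chemokines and is named outside the rule for this list, read 14.04 in knockout 2. It read 12.28 in control 1 and 7.59 to 9.30 on the others. Mmp2, a protease of the same list, went the other way, at 6.78 in knockout 2 and 7.09 to 9.44 elsewhere.

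Genes that carry the signal of chemokine receptors numbered 49, of which 43 passed the filter. None passed the test and none had an unadjusted p under 0.05. The groups did not overlap for 2, both lower in knockouts (4.65%, against 4.5% of all genes), and for 0 with higher values. Plcb2, a phospholipase C of blood cells, read 8.52 and 8.86 in controls and 8.17, 8.22 and 8.34 in knockouts, a difference of -0.44 (SE 0.17). Rgs18, which shortens G protein signals, read 11.25 and 11.87 in controls and 11.02, 11.13 and 10.99 in knockouts, a difference of -0.51 (SE 0.23). Rgs10, of the same family, and Pik3cd, a phosphoinositide 3-kinase subunit, differed by 0.86 (SE 0.50) and 0.31 (SE 0.26).

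Like the receptors, the signalling genes were often highest in knockout 2, namely 31 of 43 (72.1%, against 26%). On the other 4 arrays, 25 of 43 were lower in both remaining knockouts than in both controls (58.1%, against 13.5%), among them Gnai2, the main inhibitory G protein of leukocytes, the GTPases Rac1 and Rac2, Dock2, which activates Rac, and Arrb2, which desensitises receptors. The median difference of the 43 was then small, -0.26, against 0.0032 over all genes. Of the 43, 1, Rgs10, was higher in both remaining knockouts than in both controls, against 13.9% of all genes. The share of lower genes thus depended on the array left out, and was 2 of 43 with all arrays.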

How the data were processed

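The authors deposited log2 intensities. Per the submitters' processing notes these come from RMA, run in Affymetrix Expression Console. RMA gives all arrays the same distribution, which hides a shift common to most transcripts. Of 45101 rows, 64 control probe sets were left out, and 34945 of the other 45037 had 1 gene symbol, 932 several and 9160 none. The 4 probe sets shared by a chemokine and other genes were not used. The dimmest 40% were left out, and 27022 probe sets (12813 genes) were tested.

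The groups were compared with limma 3.58.1 (R 4.3.3; lmFit, then eBayes, two-sided, no covariate, Benjamini-Hochberg adjustment over all probe sets tested, threshold 0.05). SE is the moderated standard error. The code was tested on simulated data, and the number of arrays limits the precision. Members and lists were chosen with earlier results of these data known. Array values were given for members past the filter with groups that did not overlap, a difference of at least 1, a range of at least 2 or an unadjusted p under 0.05, and for Cxcr4, Ccr2, Cxcl12 and Cxcr2. For the other 2 lists, the rule named the 4 genes of smallest p and those without overlap. Ackr3, Mmp9, Mmp2, Gnai2, Rac1, Rac2, Dock2 and Arrb2 were named outside it. Figures were drawn with matplotlib 3.10.9. Alternatives were other filters, cyclic loess, median centring, the mean of probe sets, array weights, another eBayes prior, each array left out, and a replicate block.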

Additional observations from a re-analysis of the deposited data

How the results depend on the processing

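No member and no gene of the chemokine system or signalling lists passed under any of the alternatives run, and the smallest limma adjusted p for a named gene was 0.856. Groups separate more easily when fewer arrays are compared. Over all genes, 2.68% were higher and 4.5% lower without overlap on all 5 arrays, and 13.9% and 13.5% without knockout 2. Such shares were not worked out for the other alternatives, so the counts below are no result about these genes. As single arrays were left out, members without overlap numbered 1 to 7 with higher and 0 to 6 with lower values. Members with a difference of at least 1 in size numbered 2 to 6. Chemokine system genes without overlap numbered 0 to 2 in each direction, and signalling genes 0 to 7 higher and 2 to 25 lower. Their differences ranged from -1.55 to 1.49 for Ccl6, -0.61 to 1.51 for Ccl9, -0.91 to 2.10 for Ccr1, -0.090 to 1.95 for Cx3cr1, -0.53 to 0.033 for Cxcl12, -0.41 to 3.37 for Cxcl2, -0.46 to 0.71 for Cxcl9, -0.79 to 1.34 for Cxcr2 and -0.29 to 0.48 for Cxcr4. With array weights (7.67 for knockout 1 and 0.204 for knockout 2), Ccl6 was -1.94, Ccl9 -0.59, Ccr1 -1.21, Cxcl2 -0.36, Cxcr2 -0.69 and Cxcr4 -0.496. The same weights gave Cxcl9 1.33, Ccr9 2.52, Cx3cr1 0.14, Ccr2 0.15 and a member median of 0.048. With a filter on the lowest 60%, 12 members were tested, with 0 higher without overlap and 0 past a difference of 1. Cyclic loess gave 1 member, 1 system gene and 1 signalling gene lower. Median centring gave 2 members higher and 1 system gene lower. The mean of probe sets gave 2 members and 2 signalling genes higher, and -0.00026 for Zbtb7a and 1.27 for Ccr2. The replicate block, in which knockout 3 drops out, gave 6 members, 2 system genes and 1 signalling gene higher and 1 system gene lower. It gave 6 differences of at least 1, with no named difference reversed. Arrays of the same number had deviations from their group means that correlated at -0.58 and -0.59. The deviations of 2 controls mirror each other, so these values cannot show whether the shared numbers mark pairs. The signal of dim genes over background limits what can be said of them.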
